A study of Mus musculus with 4 samples.

Results

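The genes of the cytotoxic arsenal of lymphocytes were followed here, namely the granzymes Gzma, Gzmb, Gzmc, Gzmd, Gzme, Gzmf, Gzmg and Gzmk, perforin (Prf1) and Fas ligand (Fasl). They were taken by symbol from a fixed list of 10 names, and each name matched 1 of the 32285 genes measured. Leukocytes positive for CD45 had been sorted from subcutaneous KPC tumors, which grow from a mouse pancreatic cancer line, in male C57BL/6 mice with an intact immune system, and their RNA was read cell by cell. The 4 groups were untreated mice, mice given a STING agonist (ADU-S100, a cyclic dinucleotide injected into the tumor), mice given an LTβR agonist (the antibody 4H8 against the lymphotoxin-β receptor) and mice given both, called the combination. By the study's methods the STING agonist was given only at the start of treatment and the antibody repeatedly over the following days. Tumors for single-cell sequencing were taken days after the last dose, so the levels are not those shortly after dosing. Tumors of a group were pooled before dissociation and each group is 1 library, so that no difference between groups has a replicate check and no test between treatments was possible. Single leukocytes were sequenced in more than 1 experiment of the study, and the sources used here do not say from which of them these libraries come.

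Cytotoxic T cells and natural killer (NK) cells store granzymes, which are serine proteases, in granules together with perforin, a pore-forming protein that lets them into the cytosol of a target cell. Granzyme B cleaves caspases and the pro-apoptotic protein Bid, granzyme A and granzyme K have trypsin-like specificity, and granzymes C to G are a rodent group whose substrates are less well known. Fas ligand is the membrane-bound partner of the death receptor Fas and acts without granules. Serpins inside the killer cell guard it against its own granzyme B.

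On mm10, Gzmb lies at chr14:56258838-56262260, Gzmc at chr14:56231441-56234656, Gzmf at chr14:56205263-56211417, Gzmg at chr14:56156582-56159579, Gzmd at chr14:56129556-56132608 and Gzme at chr14:56117626-56120625, all on the minus strand of chromosome 14. Gzma (chr13:113093825-113100981) and Gzmk (chr13:113171608-113225908) are neighbours on the minus strand of chromosome 13. Prf1 is at chr10:61297833-61304680 on the plus strand and Fasl at chr1:161780689-161788495 on the minus strand. Counts are per gene, with no exon or isoform resolved.

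Gzmc to Gzmg were often found in the same single cells, as given further on, and the bases before their starts are shown because they are nearly the same. Each sequence below is the 150 bases before the first start annotated in RefSeq or GENCODE (bases from RefSeq, GRCm38.p6), written 5′ to 3′ on the minus strand, and so on the strand of the gene. The capitals mark a run of 20 bases that all 5 share, the 6 letters TGTGGT of a RUNX motif and, where present, the 8 letters TGACGTCA of a cAMP response element. The windows are chr14:56234658-56234807 for Gzmc, chr14:56132609-56132758 for Gzmd, chr14:56120626-56120775 for Gzme, chr14:56211418-56211567 for Gzmf and chr14:56159580-56159729 for Gzmg.
Gzmc: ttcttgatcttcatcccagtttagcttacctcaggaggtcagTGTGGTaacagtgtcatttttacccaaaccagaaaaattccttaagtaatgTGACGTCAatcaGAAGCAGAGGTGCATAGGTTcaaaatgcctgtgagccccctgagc
Gzmd: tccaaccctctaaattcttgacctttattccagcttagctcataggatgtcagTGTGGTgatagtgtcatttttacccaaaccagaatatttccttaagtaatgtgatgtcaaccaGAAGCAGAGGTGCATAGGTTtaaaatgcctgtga
Gzme: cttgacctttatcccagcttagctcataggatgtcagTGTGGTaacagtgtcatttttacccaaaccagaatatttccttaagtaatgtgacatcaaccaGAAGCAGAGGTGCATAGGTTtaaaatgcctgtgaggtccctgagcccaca
Gzmf: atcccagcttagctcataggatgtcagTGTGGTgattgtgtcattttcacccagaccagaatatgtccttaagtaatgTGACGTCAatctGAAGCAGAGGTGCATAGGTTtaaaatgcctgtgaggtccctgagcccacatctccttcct
Gzmg: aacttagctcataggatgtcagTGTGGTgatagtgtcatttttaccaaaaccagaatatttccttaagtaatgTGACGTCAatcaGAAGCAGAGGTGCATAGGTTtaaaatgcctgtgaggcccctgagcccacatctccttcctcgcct
The aligned bases of these windows were 88.9% to 97.5% identical between pairs of the 5 genes, and 63.2% to 70.2% identical to the same window of Gzmb. The shared run was present in 5 of 32851 RefSeq promoters of the same genome, those of these 5 genes. Of 6 motifs searched on both strands in the 250 bases before the start, TGTGGT (RUNX) was found in 8 of the 10 genes, all but Gzmk and Fasl, against 14% of all promoters. Gzmc to Gzmg make up 5 of the 8, and with nearly the same bases they are not separate matches. A gene was counted where any of its promoters matched, while the percentages are shares of single promoters. TCACAC (T-box) was found in Gzmb and Gzmk (12.3% of all promoters), TGANTCA (AP-1) in Gzmb (6.75%), an interferon response element in Gzma (2.98%), GGAAAA (NFAT) in Gzma and Fasl (20.4%) and TTCNNNGAA (STAT) in none (7.02%). The palindrome TGACGTCA was searched after the sequences had been seen and was found in Gzmc, Gzmf and Gzmg, and in 1.55% of all promoters. These are matches of letters, which do not show that a factor binds there.

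The libraries held 3955 to 7824 barcodes, of which 3748 to 7147 per library were kept, with a median of 5750 to 7094 unique molecular identifiers (UMIs, each 1 captured RNA molecule) per cell. Of the kept cells, 2.29% carried a barcode sequence that another library also had. Cell classes were rebuilt from RNA by clustering without the 10 genes, so they may differ from the classes of the study. T-like cells counted as CD8 cells where they held a Cd8a or Cd8b1 UMI and no Cd4 UMI, and there were 956 of them in untreated tumors, 585 after the STING agonist, 811 after the LTβR agonist and 1008 after the combination, the order kept below. CD4 cells, gated the other way round, numbered 302, 315, 512 and 393, γδ-like T cells 99, 82, 85 and 130, and NK-like cells 438, 251, 685 and 377. Their markers followed these names, with Cd3e, a chain of the T cell receptor complex, in 90.5% to 94.0% of CD8 cells and 2.39% to 4.23% of NK-like cells, the NK receptor gene Ncr1 in 50.7% to 64.9% of NK-like cells, and the δ constant gene Trdc in 58.6% to 72.0% of γδ-like cells. The summed level of 12 macrophage and monocyte markers was 998, 1183, 1015 and 853 CPM (counts scaled to the same total in every class and library) in CD8 cells, where all 12 were found, and 884, 1079, 639 and 935 CPM in NK-like cells, and its part in the results was not tested. A cluster of 520 cells with T cell and macrophage genes together was kept out of the classes, with Gzmb at 574.2, 656.1, 393.1 and 469.8 CPM, as were 618, 399, 736 and 524 T-like cells with neither or both of the CD4 and CD8 genes, with Gzmb at 635.1, 517.1, 557.1 and 537.6 CPM.

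Levels are CPM of all UMIs summed over a class in a library, with an exact Poisson 95% interval that covers counting error only and not the spread between tumors. Differences are log2 ratios after adding 10 CPM, with an interval made from the opposite bounds of both levels. Fewer cells expressing a gene and less RNA per cell give the same summed level, and the share of cells is therefore given beside it.

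CD8 cells expressed Gzmb and Prf1 in most cells, and both were lowest in the LTβR agonist library. Gzmb was at 2247 (2211 to 2283), 2333 (2288 to 2378), 1229 (1200 to 1259) and 1933 (1901 to 1965) CPM. The LTβR agonist library thus stood apart from the other 3, at a log2 ratio to untreated of -0.86 (-0.92 to -0.81), against 0.05 (0.00 to 0.10) with the STING agonist and -0.22 (-0.26 to -0.17) with the combination. A Gzmb UMI was found in 75.5%, 72.5%, 60.2% and 64.3% of CD8 cells, and in 56.3%, 53.9%, 40.1% and 45.4% once every cell had been thinned to 1000 UMIs. The median CD8 cell had 868, 815, 285 and 476 CPM of Gzmb, in the same order of the libraries as the shares. Free RNA sets a background for such shares, and in macrophage or monocyte-like cells, which should lack the gene, a Gzmb UMI was found in 3.09% to 4.45% of cells at median depths of 7470 to 10308 UMIs, against 5803 to 6854 in CD8 cells.

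Prf1, the pore-forming partner of the granzymes, was at 1254 (1227 to 1281), 1046 (1016 to 1076), 626.1 (605.1 to 647.7) and 795.2 (774.7 to 816) CPM in CD8 cells. Unlike Gzmb it was below untreated in all 3 treated libraries, with log2 ratios of -0.26 (-0.33 to -0.19), -0.99 (-1.07 to -0.91) and -0.65 (-0.72 to -0.58). The share of CD8 cells with a Prf1 UMI was 73.5%, 70.3%, 61.8% and 65.0%, and 47.4%, 42.5%, 31.5% and 34.3% after thinning. In macrophage or monocyte-like cells it was 0.80% to 1.63%. Barcodes over the mitochondrial limit, a sign of cell or RNA quality, made up 2.71%, 2.68%, 5.99% and 6.78% of the libraries and were thus most frequent in those with the lowest Prf1. With the limit set at 4% in place of 6%, the Prf1 ratios were -0.26, -0.99 and -0.66.

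**Figure D1:**
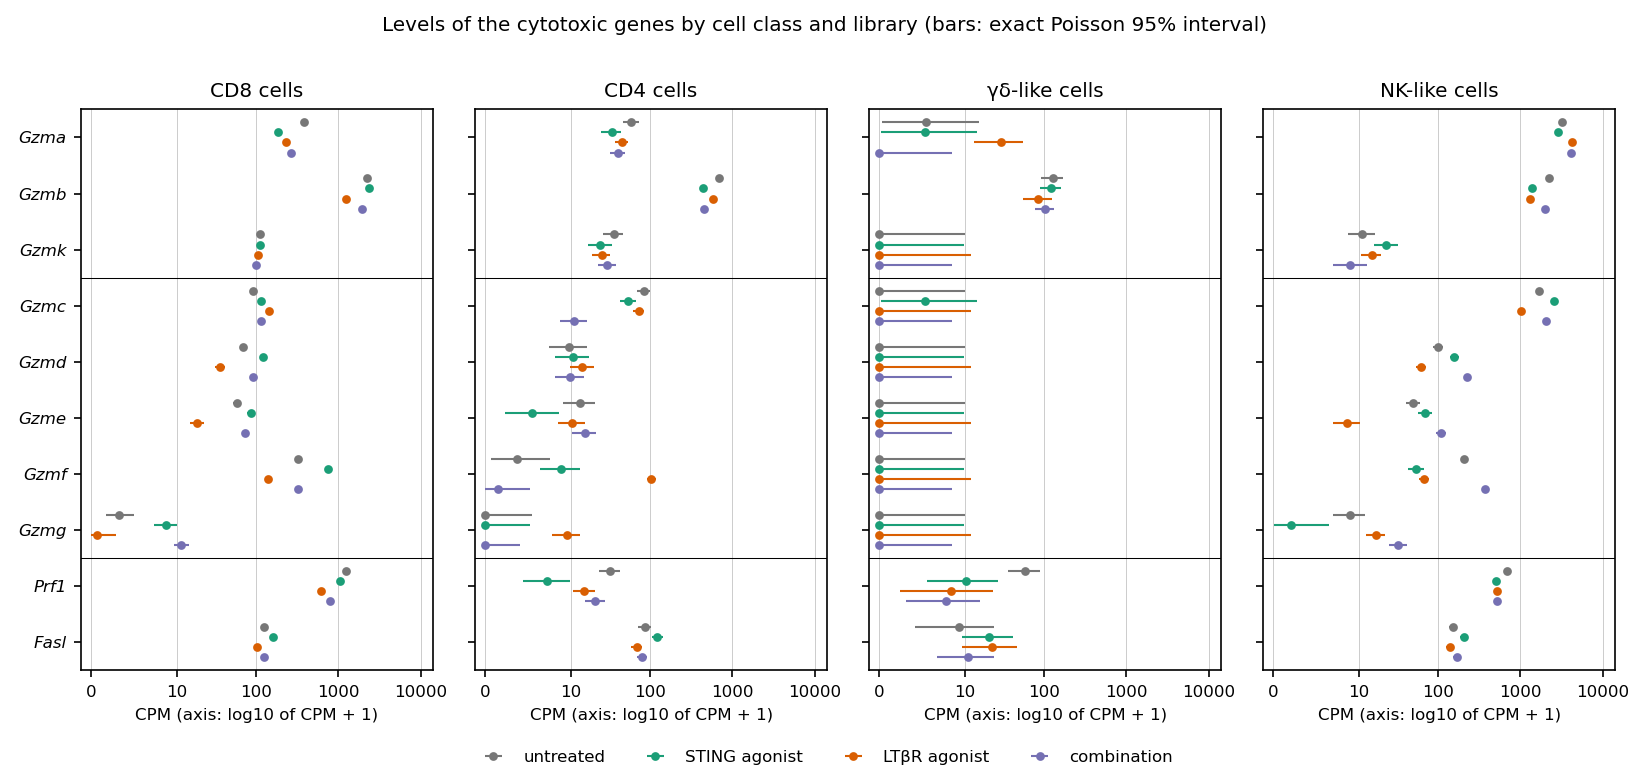
Levels of the 10 genes in the 4 cell classes, one panel per class, in CPM on an axis of log10(CPM + 1), with 1 point per library and bars for the exact Poisson 95% interval. In CD8 cells the Gzmb point of the LTβR agonist library (1229 CPM) lies left of the other 3 (1933 to 2333 CPM), in NK-like cells Gzma is at 2907 to 4235 CPM, and γδ-like cells hold few UMIs of any gene but Gzmb.

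The lower Gzmb level was also present within 1 state of CD8 cells. The largest T-like sub-cluster, called exhausted-like for the exhaustion marker Lag3 among its leading genes, held 57.1%, 52.6%, 48.6% and 51.2% of the CD8 cells. Gzmf and Prf1 were also among the genes that set it apart, and only its libraries are compared here. Within it Gzmb was at 2819, 2813, 1512 and 2489 CPM, with a UMI in 89.7%, 85.7%, 73.6% and 80.6% of its cells, and the LTβR agonist ratio to untreated was -0.89 (-0.96 to -0.83). Prf1 within it was at 1667, 1447, 951.6 and 1088 CPM, with LTβR agonist and combination ratios of -0.80 (-0.89 to -0.71) and -0.61 (-0.69 to -0.54). Outside it the LTβR agonist ratio was -0.39 (-0.50 to -0.28) for Gzmb and -0.84 (-1.02 to -0.66) for Prf1. A naive-like sub-cluster made up 0.5%, 0.9%, 4.7% and 7.5% of CD8 cells. In the larger memory-like sub-cluster (12.6%, 17.4%, 13.2% and 17.0% of CD8 cells) Gzmb did not have this order, at 848.9, 1042, 1171 and 812.8 CPM. In the cycling one it was at 1153 CPM in untreated and 1303 CPM in LTβR agonist cells. The LTβR agonist library was lowest in the smaller memory-like (210.4, 185.8, 73.6 and 110.7 CPM) and interferon-like (2699, 5628, 2108 and 3783 CPM) sub-clusters. The smaller memory-like one was led by Klra7 and Klra1, with only Cd7 of the memory markers among its leading genes, so its name is weak. The LTβR agonist library was also lowest in unnamed ones led by Myo10 (795.6, 633.0, 450.0 and 798.4 CPM) and Hspa1b (4995, 3088, 2037 and 2087 CPM). In an alternative called equal weights, each sub-cluster had the same weight, its pooled share of cells, in every library. Sub-clusters with fewer than 20 cells in any library were left out, among them the naive-like and cycling ones. In the remaining CD8 cells the LTβR agonist ratio was -0.75 for Gzmb and -0.79 for Prf1. The combination ratio of Prf1 was -0.53, within 1.5-fold.

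Gzmk, a granzyme of memory-like and early exhausted T cells, was at 111.3 (103.5 to 119.6), 111.4 (101.9 to 121.7), 105.8 (97.2 to 114.8) and 99.2 (92.1 to 106.8) CPM in CD8 cells. These 4 levels had overlapping intervals, and relative to untreated cells the ratios came to 0.00 (-0.21 to 0.21), -0.07 (-0.27 to 0.14) and -0.15 (-0.34 to 0.04). Fasl was at 124.9 (116.6 to 133.6), 159.4 (148.0 to 171.6), 102.8 (94.4 to 111.7) and 124.8 (116.7 to 133.2) CPM, in 50.9%, 58.3%, 44.1% and 50.5% of cells. It was highest with the STING agonist (ratio 0.33, 0.14 to 0.52) and lowest with the LTβR agonist (-0.26, -0.46 to -0.06), both within 1.5-fold, and its combination ratio was -0.00 (-0.18 to 0.18). In macrophage or monocyte-like cells a Fasl UMI was found in 0.465% to 1.26%.

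Gzma in CD8 cells was at 386 (371.3 to 401.1), 182.4 (170.2 to 195.4), 228.8 (216.2 to 242) and 267 (255.2 to 279.2) CPM. All 3 treated libraries were below untreated, at ratios of -1.04 (-1.19 to -0.89), -0.73 (-0.86 to -0.60) and -0.52 (-0.63 to -0.40). The level rested on few cells, since the 10 highest cells of a library held 76.4%, 69.4%, 57.8% and 76.0% of its UMIs. A Gzma UMI was found in 9.21%, 10.4%, 10.5% and 6.85% of CD8 cells, while macrophage or monocyte-like cells held one in 1.97%, 0.73%, 2.63% and 0.839%. Without those 10 cells per library the STING agonist ratio was -0.63 and the LTβR agonist ratio 0.08, on the other side of 0. As the mean of CPM per cell, which gives every cell the same weight, the 3 ratios were -0.13, -0.31 and -0.18, all within 1.5-fold.

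**Figure D2:**
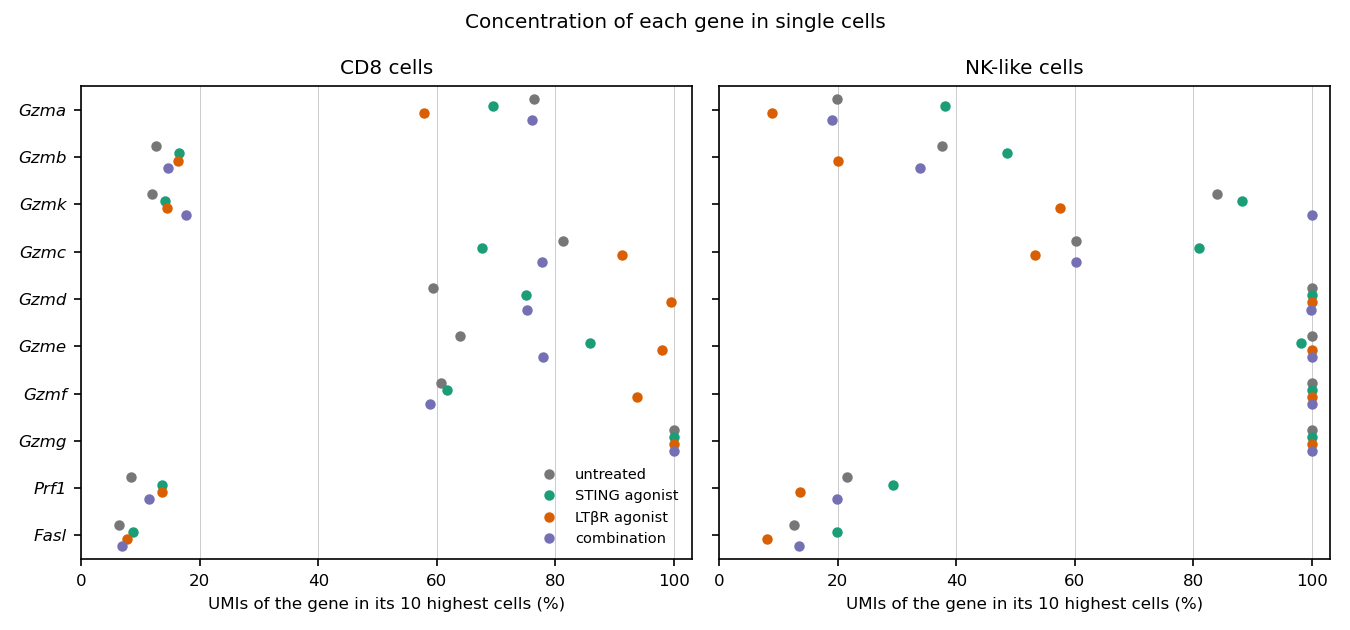
Share of the UMIs of each gene that its 10 highest cells held, in percent, in CD8 cells (left) and NK-like cells (right), with 1 point per library. Gzmb, Gzmk, Prf1 and Fasl were spread over many CD8 cells, with Gzmb at 12.6% to 16.6%, whereas Gzma was at 57.8% to 76.4% and Gzmg at 100% in every library.

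Granzymes C to G, encoded side by side on chromosome 14, were carried by a small number of CD8 cells. Gzmf, with the most UMIs of them in all libraries but that of the LTβR agonist, was at 321.1 (307.7 to 334.9), 754.8 (729.6 to 780.7), 139.1 (129.3 to 149.4) and 327.5 (314.4 to 341.0) CPM, in 9.62%, 12.1%, 3.82% and 7.44% of cells, while macrophage or monocyte-like cells held one in 0.164% to 0.598% (for Gzmc, Gzmd and Gzme at most 0.996%). The STING agonist library was higher than untreated by a log2 ratio of 1.21 (1.10 to 1.32) and the LTβR agonist library lower at -1.15 (-1.31 to -0.99), and without the 10 highest cells per library these were 1.15 and -2.90. Gzmd was at 68.6, 122.8, 36.1 and 92.4 CPM and Gzme at 58.2, 86.4, 18.4 and 73.1 CPM, the same order of the 4 libraries in both genes. Gzmd had ratios to untreated of 0.76, -0.77 and 0.38, which were 0.11, -1.92 and -0.21 without its 10 highest cells per library. Gzme had 0.50, -1.26 and 0.29, and without them -0.47, -1.60 and -0.25. Only the lower level of the LTβR agonist library thus kept its direction in both genes, while the small STING agonist ratio of Gzmd also kept its own. Gzmc had another order, at 92.1, 115.2, 145.6 and 114.9 CPM, and its LTβR agonist ratio of 0.61 (0.41 to 0.81) became -0.27 without the 10 highest cells, which held 91.3% of its UMIs there. Gzmg was close to the detection limit, with 8, 32, 1 and 83 UMIs over all CD8 cells of a library.

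A limit of 100 UMIs over Gzmc to Gzmg together, set after the values had been seen, marked 9, 15, 5 and 9 CD8 cells per library. These cells held 51.0%, 67.9%, 73.2% and 57.8% of the UMIs of the 5 genes, and their median depth was 18814, 15020, 12055 and 16397 UMIs, well above that of the class. None of them had a doublet score of 0.2 or more. At least 1 UMI of any of the 5 genes was found in 8.63% of CD8 cells of the LTβR agonist library, 12.5% of the combination library, 16% of the untreated library and 19.3% of the STING agonist library. After thinning these shares were 3.24%, 6.89%, 8.66% and 9.98%.

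Cells that held 1 of the 5 genes often held others of them. Among thinned CD8 cells of the untreated library, 15 of 22 cells with Gzmd (68.2%) also held Gzme, against 1.19% of cells without Gzmd, and 15 of 22 held Gzmf, against 3.68%. In the STING agonist library 14 of 19 Gzmd cells (73.7%) held Gzmf, in the combination library 17 of 27 (63.0%), and in the LTβR agonist library 4 of 7. Gzmb was found in 86.4%, 89.5%, 57.1% and 88.9% of Gzmd cells against 55.6%, 52.7%, 40.0% and 44.2% of the others. Gzmk was found in 0 of 22, 0 of 19 and 1 of 27 Gzmd cells of the untreated, STING agonist and combination libraries, and in 1 of 7 in the LTβR agonist library. Of cells without Gzmd, 9.62%, 8.54% and 8.41% held it in the first 3 of these, so the Gzmd cells are too few to show a direction. In CD8 cells with 100 or more UMIs of the 5 genes Gzmk was at 113, 21.9, 17.0 and 21.3 CPM. These values were below the level of the class except in the untreated library. Cells of 1 library are not replicates and these shares are given as a description. The transcripts of Gzmc to Gzmg are 79.3% to 95.1% identical, highest between Gzmd and Gzme. In Gzmd, 12 of the 875 stretches of 90 bases are also in Gzmg and 7 in Gzme, and reads from these stretches cannot be told apart. The share of reads that fall there was not measured.

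**Figure D3:**
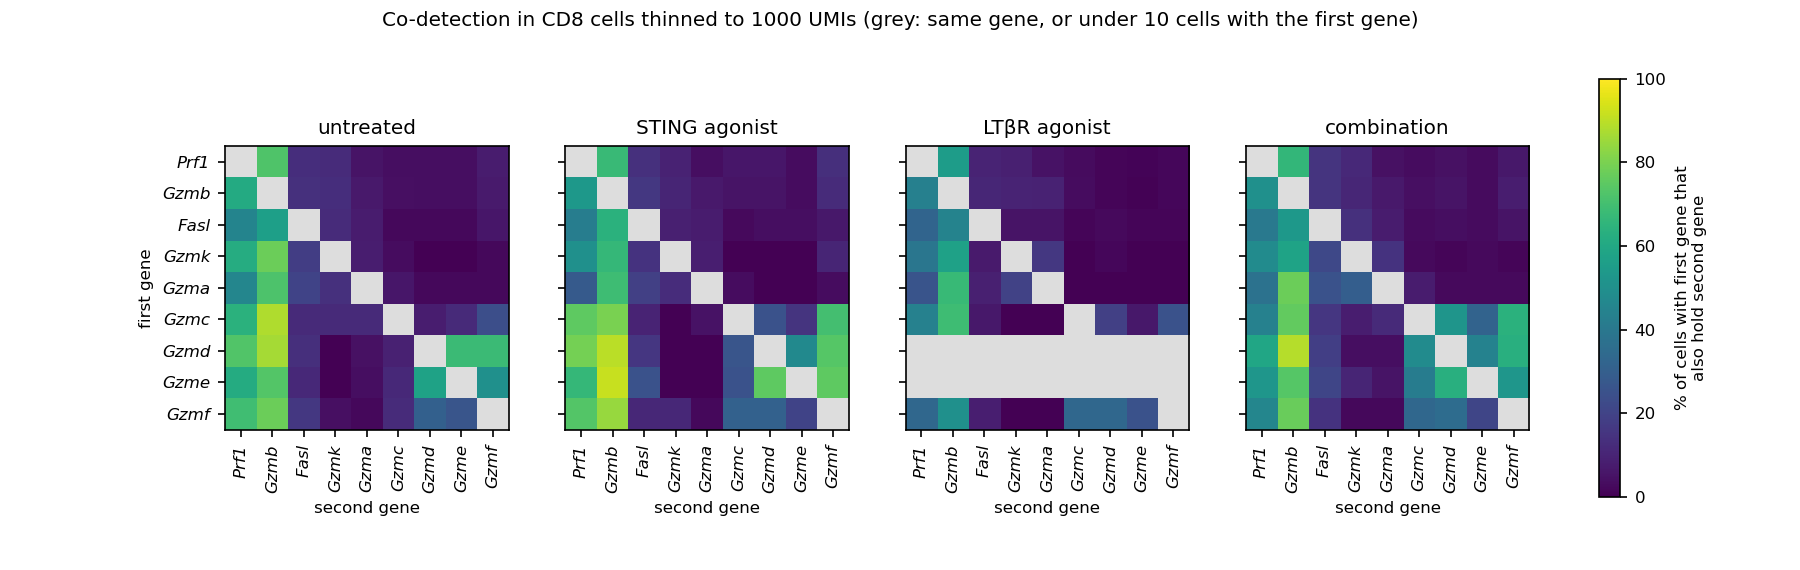
Co-detection of the genes in CD8 cells thinned to 1000 UMIs, one panel per library, as the percent of cells with the first gene (vertical axis) that also held the second (horizontal axis), from 0 to 100%. Grey marks the same gene or fewer than 10 cells with the first gene, and the block of Gzmc to Gzmf stands out in the untreated, STING agonist and combination panels, where 68.2%, 73.7% and 63.0% of Gzmd cells held Gzmf.

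All 10 genes had at least 100 UMIs over the 4 libraries in CD8 cells, as had 9842 genes in all. With the STING agonist 3 of the 10 were at least 1.5-fold higher than in untreated CD8 cells (Gzmd, Gzmf and Gzmg), against 0.721% of all genes with that many UMIs, and 1 was at least 1.5-fold lower (Gzma), against 0.904%. Without the 10 highest cells per library the ratios of Gzmd and Gzmg were 0.11 and 0.00, and that of Gzmc 0.81. With the LTβR agonist 1 was higher (Gzmc), against 0.894% of all genes, and 6 were lower (Gzma, Gzmb, Gzmd, Gzme, Gzmf and Prf1), against 0.996%. With the combination 1 was higher (Gzmg), against 0.518%, and 1 lower (Prf1), against 0.986%. Gzmg reached 100 UMIs only through its 83 UMIs in the combination library, and its being counted as higher there carries no weight. Without the UMIs of the STING agonist library it also fell short of 100, and the same holds for its count there. The median log2 ratio of the 10 genes was 0.31, -0.75 and 0.01 in these comparisons, beside 0.02, 0.01 and -0.03 for all such genes. The 3 comparisons share the untreated library, and the 5 genes of chromosome 14 share cells and are not separate evidence.

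Against the LTβR agonist library, 5 of the 10 genes were higher in the CD8 cells of the combination library by 1.5-fold or more (0.782% of all genes) and none lower (1.12%). These were Gzmb at a log2 ratio of 0.65 (0.59 to 0.71), Gzmd at 1.15 (0.89 to 1.41), Gzme at 1.55 (1.25 to 1.84), Gzmf at 1.18 (1.03 to 1.33) and Gzmg at 1.08 (0.80 to 1.28). Prf1 was 0.34 (0.25 to 0.43) higher, within 1.5-fold. Against the STING agonist library none was higher (0.569%) and only Gzmf was lower (0.65%), at -1.18 (-1.29 to -1.08). Neither comparison was repeated without the 10 highest cells per library, which was done only for ratios to untreated.

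**Figure D4:**
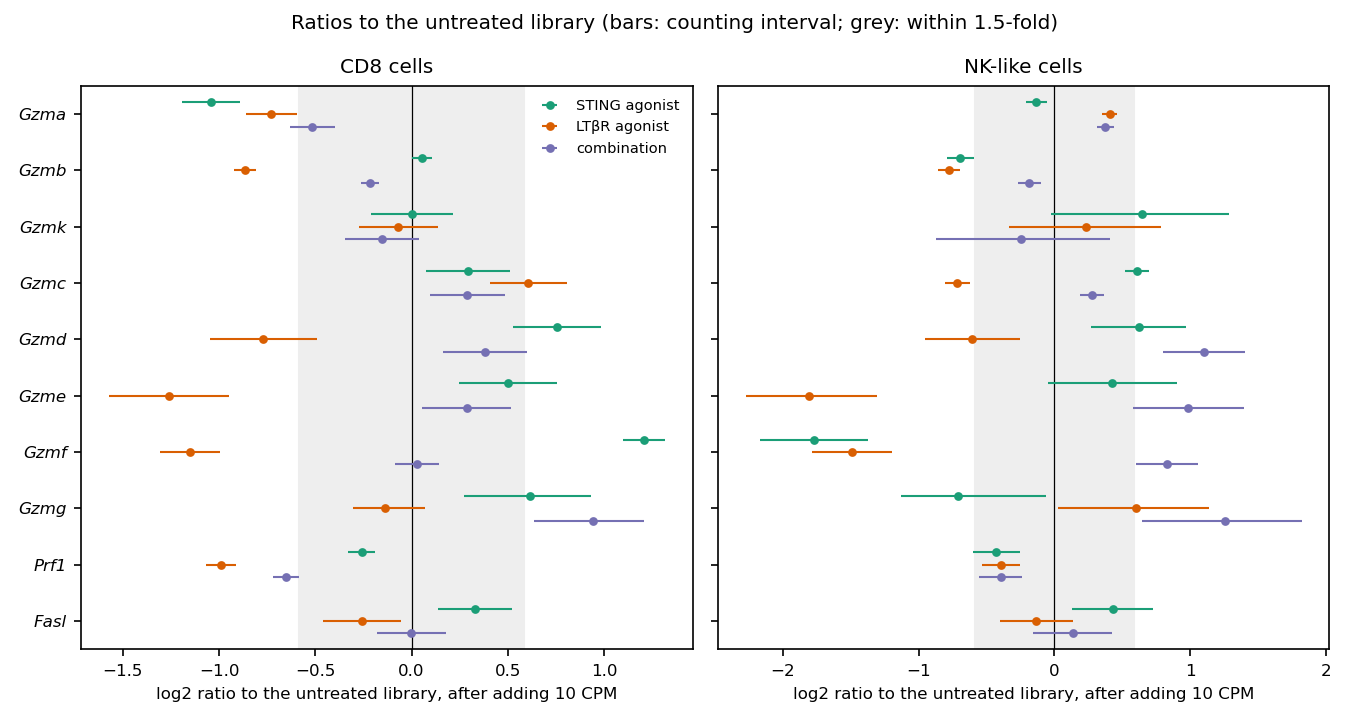
Log2 ratios of each gene to the untreated library, after adding 10 CPM, in CD8 cells (left) and NK-like cells (right), with 1 point per treated library, bars for the counting interval and a grey band for 1.5-fold. In CD8 cells Prf1 lies left of 0 in all 3 treated libraries (-0.26, -0.99 and -0.65) and Gzmf lies on both sides (1.21, -1.15 and 0.03).

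NK-like cells expressed Gzma, Gzmb, Gzmc, Prf1 and Fasl, and carried most of the Gzma and Gzmc of the sorted leukocytes. They held 63.6%, 78.0%, 80.1% and 73.7% of all Gzma UMIs and 74.2%, 85.4%, 69.8% and 80.7% of all Gzmc UMIs in a library, while CD8 cells held 60.1%, 70.8%, 43.1% and 64.9% of those of Gzmb and 73.7%, 80.0%, 57.9% and 76.6% of those of Prf1. Gzma was at 3191 (3118 to 3265), 2907 (2821 to 2995), 4235 (4164 to 4306) and 4143 (4053 to 4234) CPM in NK-like cells. The STING agonist library was lowest and both libraries with the LTβR agonist were highest, by ratios of -0.13, 0.41 and 0.38, all within 1.5-fold. With equal weights of the NK-like sub-clusters that had 20 cells in every library, the LTβR agonist ratio was -0.11. Among those left out, Gzma was higher in LTβR agonist than in untreated cells of the sub-clusters led by Spp1 (2622 against 1863 CPM), Ifit3 (6548 against 3117 CPM) and Hspa1a (4740 against 1863 CPM). The others left out had fewer than 20 untreated cells. Gzmb was at 2237 (2176 to 2299), 1381 (1322 to 1442), 1303 (1263 to 1343) and 1967 (1906 to 2031) CPM, so that here the STING agonist library (ratio -0.69, -0.79 to -0.59) was low as well as the LTβR agonist library (-0.78, -0.86 to -0.69), and the intervals of their levels overlapped. The share of NK-like cells with a Gzmb UMI was nonetheless 63.2%, 58.2%, 62.8% and 64.7%, and the 10 highest cells held 37.6%, 48.6%, 20% and 33.9% of the UMIs. Without those cells the ratios were -0.90 and -0.44. Prf1 was at 690.4 (656.7 to 725.4) CPM in untreated NK-like cells and at 510.9, 523.1 and 522.1 CPM in the others, whose intervals overlapped, with ratios of -0.43, -0.39 and -0.40.

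The make-up of the NK-like class differed between libraries and moved with several of these levels. A sub-cluster called ILC1-like (group 1 innate lymphoid cells) by a list of marker genes made up 12.1%, 31.9%, 8.0% and 18.0% of it. The 7 markers of the list detected in it were Itga1, Cd200r1, Il7r, Cxcr6, Rora, Tmem176a and Tmem176b. Of these, Tmem176a and Tmem176b were among its leading genes, but also among those of the larger γδ-like sub-cluster, and so are not particular to ILC1-like cells. Gzmc was high in these ILC1-like cells in every library, at 5177, 5154, 5312 and 6243 CPM, in 60.4%, 51.2%, 50.9% and 44.1% of them, and at 991.8, 929, 465.2 and 833.7 CPM in the other NK-like cells. It was not particular to them, since the other NK-like cells include the unnamed sub-cluster led by Spp1. There Gzmc was at 3816, 2379 and 3225 CPM in the untreated, LTβR agonist and combination libraries, in 68%, 53.8% and 66.7% of cells. With the STING agonist that sub-cluster had only 11 cells. Over the whole class Gzmc was at 1676 (1624 to 1730), 2563 (2482 to 2645), 1018 (983 to 1053) and 2034 (1972 to 2099) CPM, the same order of the 4 libraries as that of the ILC1-like share. Without the ILC1-like cells the STING agonist ratio of Gzmc was -0.09 in place of 0.61, and the LTβR agonist ratio -1.08 in place of -0.71. Gzma went the other way, at 2330, 1534, 629.1 and 1336 CPM in ILC1-like cells and 3359, 3773, 4698 and 4944 CPM in the rest. In the conventional NK-like sub-cluster, whose leading genes include S1pr5 and Itgam, Gzma was at 8249, 8190, 9079 and 10993 CPM. Gzmb outside the ILC1-like cells was at 2143, 1616, 1291 and 1936 CPM, with a STING agonist ratio of -0.40 (-0.52 to -0.29) and an LTβR agonist ratio of -0.73 (-0.82 to -0.64).

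**Figure D5:**
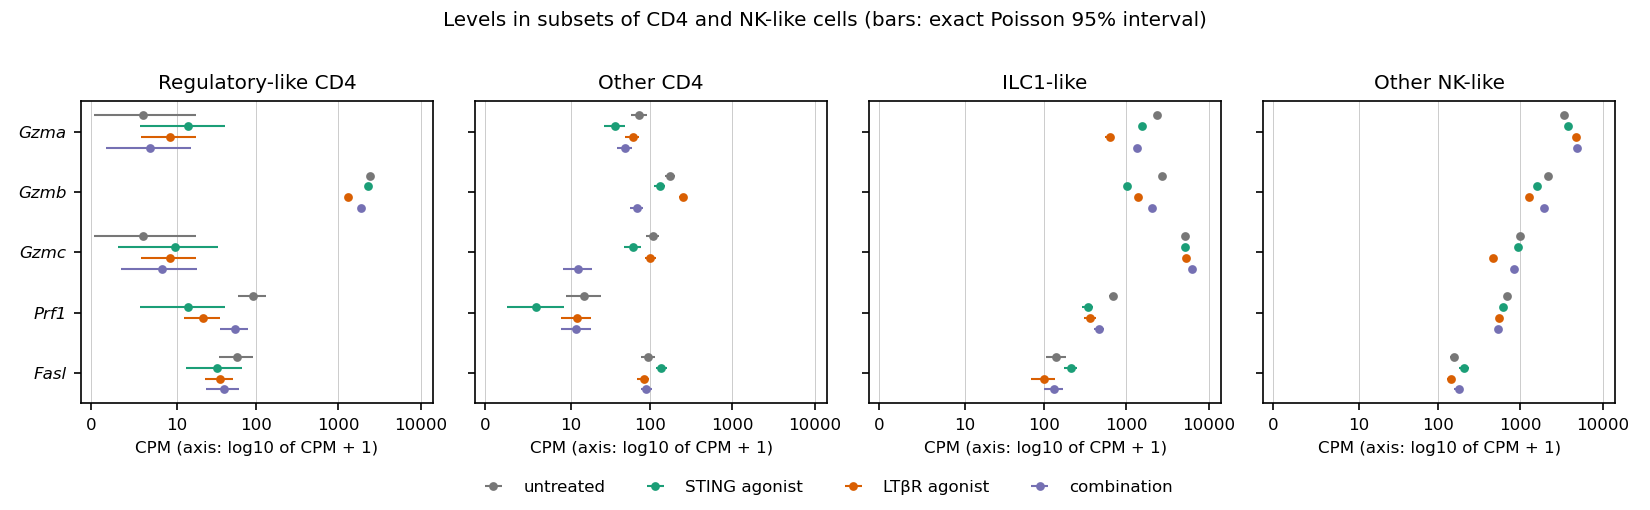
Levels of Gzma, Gzmb, Gzmc, Prf1 and Fasl in regulatory-like and other CD4 cells and in ILC1-like and other NK-like cells, in CPM on an axis of log10(CPM + 1), with 1 point per library and bars for the exact Poisson 95% interval. Gzmb is at 1320 to 2443 CPM in regulatory-like CD4 cells against 68.2 to 249.8 CPM in the other CD4 cells, and Gzmc is at 5154 to 6243 CPM in ILC1-like cells.

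The remaining granzymes of chromosome 14 were found in few NK-like cells. Gzmf was at 206.7, 53.5, 67.0 and 375.5 CPM, with a UMI in 1.37%, 0.797%, 0.292% and 2.65% of cells, and Gzmd at 99.2, 157.8, 61.7 and 224.4 CPM. The cells with 100 or more UMIs of Gzmc to Gzmg numbered 10, 11, 8 and 15 and held 64.5%, 81.1%, 53.3% and 77.8% of the UMIs of the 5 genes. Gzmk was at 25, 34, 47 and 15 UMIs in NK-like cells. Fasl was at 152.3 (136.7 to 169.2), 208.6 (186.1 to 233.1), 138.1 (125.5 to 151.6) and 168 (150.3 to 187.2) CPM, again highest with the STING agonist and lowest with the LTβR agonist, the latter with an interval that overlapped that of untreated cells. Counted over the class, 3 of the 10 genes were 1.5-fold or more higher with the STING agonist (Gzmc, Gzmd and Gzmk, against 2.56% of 7742 genes) and 3 lower (Gzmb, Gzmf and Gzmg, against 1.33%). With the LTβR agonist 1 was higher (Gzmg, against 0.4%) and 5 were lower (Gzmb, Gzmc, Gzmd, Gzme and Gzmf, against 0.581%), and with the combination 4 were higher (Gzmd, Gzme, Gzmf and Gzmg, against 0.878%) and none was lower (1.2%). The medians of the 10 genes were 0.15, -0.50 and 0.33, beside 0.05, -0.03 and -0.02 for all such genes. Without the 10 highest cells per library, only Gzmb in the STING agonist comparison among these counts was still past 1.5-fold. Against the LTβR agonist library, 6 genes were higher in the combination library (Gzmb, Gzmc, Gzmd, Gzme, Gzmf and Gzmg, against 0.814%) and none lower (0.62%), and against the STING agonist library 2 were higher (Gzmf and Gzmg, against 0.646%) and 1 lower (Gzmk, against 1.92%). Gzmg reached 100 UMIs in NK-like cells only with the UMIs of both the LTβR agonist and the combination libraries. Gzmk did so only with those of the untreated, STING agonist and LTβR agonist libraries together. Counts of either gene as higher in those libraries carry no weight. Nor does the count of Gzmk as lower in the combination over the STING agonist library.

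CD4 cells carried Gzmb mainly in regulatory-like cells, the sub-clusters with Foxp3 or Ikzf2, transcription factors of regulatory T cells, among their leading genes. These numbered 64, 45, 156 and 88 cells and had 2443, 2332, 1320 and 1907 CPM of Gzmb, with a UMI in 75%, 75.6%, 68.6% and 76.1%. As in CD8 cells the LTβR agonist library was lowest, at a ratio of -0.88 (-1.08 to -0.69). The other CD4 cells had 175.1, 131.3, 249.8 and 68.2 CPM, with a UMI in 17.2%, 13.7%, 10.96% and 10.5% of them, and in the LTβR agonist library the 10 highest cells held 86.8% of these UMIs. Over all CD4 cells Gzmb was at 682.1 (639.3 to 727.1), 445.4 (412.2 to 480.6), 576.5 (546.5 to 607.7) and 457.7 (430.2 to 486.6) CPM. Fasl had the opposite split, at 58.3, 32.8, 35.5 and 39.9 CPM in regulatory-like and 94.1, 137.5, 82.9 and 89.7 CPM in other CD4 cells. Prf1 was found in 44, 7, 36 and 47 UMIs and thus near the detection limit. Over CD4 cells 7 of the 10 genes had at least 100 UMIs, of which with the STING agonist 1 was higher and 3 lower (against 3.03% and 2.83% of 7489 genes), with the LTβR agonist 1 higher and 1 lower (1.59% and 2.96%) and with the combination none higher and 1 lower (2.35% and 4.58%). In the combination over the LTβR agonist library none was higher and 2 were lower (1.7% and 2.02%), and over the STING agonist library 1 was higher and 2 were lower (2.34% and 4.63%). The higher one in the LTβR agonist library was Gzmf, whose 248 UMIs there came from 2 cells. The other libraries held 2, 11 and 1 UMIs, so Gzmf reached 100 UMIs only through that library and had to be counted as higher in it. For the same reason it was 1 of the 2 lower in the combination over the LTβR agonist library, at -3.44. It was also the 1 higher with the STING agonist, at 11 against 2 UMIs. No count of Gzmf in CD4 cells carries weight.

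The γδ-like T cells, whose larger sub-cluster had Il17a and Cd163l1 among its leading genes, held little of the arsenal. Gzmb was at 126.4, 119.9, 84.2 and 101.1 CPM (46, 46, 26 and 56 UMIs), in 18.2%, 24.4%, 10.6% and 11.5% of the cells, above the 3.09% to 4.45% of macrophage or monocyte-like cells. Prf1 was found in 21, 4, 2 and 3 UMIs, Fasl in 3, 8, 7 and 6 and Gzma in 1, 1, 9 and 0. Gzmd, Gzme, Gzmf, Gzmg and Gzmk had no UMI in any library. Only Gzmb reached 100 UMIs over the class, and it was not past 1.5-fold in any comparison. Of 3056 genes, 9.42% were higher and 9.1% lower by that much with the STING agonist, 4.19% and 7.17% with the LTβR agonist and 4.88% and 8.64% with the combination, and 5.56% and 5.69% in the combination over the LTβR agonist library and 3.47% and 5.3% over the STING agonist library. With γδ cells taken instead as all T-like cells with UMIs of both Trdc and a γ constant gene, Gzmb was at 337.7, 105.5, 126.3 and 207.3 CPM.

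Of 37 genes of the same machinery, chosen for granule storage and release, inhibition, the death receptor arm and regulation, 34 had at least 100 UMIs in CD8 cells. With the STING agonist 1 of them was 1.5-fold or more higher and none lower, with the LTβR agonist 1 was higher and 3 lower, and with the combination 1 was higher and 1 lower, beside 0.721% and 0.904%, 0.894% and 0.996%, and 0.518% and 0.986% of all genes. Serpinb9, the inhibitor of granzyme B, was at 285.8, 346.1, 157.3 and 230.8 CPM in CD8 cells, and so had the library order of Gzmb, with an LTβR agonist ratio of -0.82 (-0.98 to -0.67). Its paralog Serpinb9b, at 16.8, 37.5, 5.03 and 17.3 CPM, had ratios of 0.83 and -0.84 with the STING and LTβR agonists. Lyst, a regulator of lysosome trafficking needed for granule release, was at 372.3, 264.4, 212.8 and 241.2 CPM, with ratios of -0.78 and -0.61 in the LTβR agonist and combination libraries. Tcf7, a transcription factor of naive and stem-like T cells, was at 40.0, 62.1, 86.6 and 81.3 CPM, with ratios of 0.95 and 0.87 in the LTβR agonist and combination libraries. Zfp683, a regulator of tissue residency, was past 1.5-fold only between the combination and STING agonist libraries, at -0.62. In NK-like cells 31 of the 37 genes had 100 UMIs and none was past 1.5-fold in a comparison with untreated, where 0.4% to 2.56% of all genes were higher and 0.581% to 1.33% lower, and the medians were 0.01, 0.00 and -0.02.

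Over the 16 levels of the 4 classes in the 4 libraries, the genes with the most similar pattern to Gzmb among 10994 were Nkg7, Klrd1 and Padi2, each with Pearson's r of 0.97 between log2(CPM + 10) values. Those most like Gzma were Ugcg, Klri2 and Nod1 (0.98, 0.98 and 0.97), those most like Gzmk were Ifi27, Rgs16 and Lag3 (each 0.97) and the nearest to Fasl were Abcb1a and Il12rb2 (each 0.97). The gene most like Gzmc was Sh2d3c (0.97), followed by Kit (0.96) and Gzma (0.96), that most like Gzme was Gzmd (0.93), that most like Prf1 was Kif13b (0.96) that most like Gzmf was 1700017B05Rik (0.93) and that most like Gzmg was Rpl10-ps3 (0.79). The 16 points are not independent, since 4 of them share each library and 4 each class, and most of the spread lies between classes.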

How the data were processed

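Per the labels and the study's methods, live CD45+ cells of pooled KPC tumors were sorted and sequenced with 10x 5′ chemistry. The authors made the deposited UMI counts, whole-number and not normalized, with Cell Ranger 7.1.0 on mm10, and all libraries stood in 1 matrix of 32285 genes, with cells assigned by barcode suffix. Cells with 300 to 5000 genes and at most 6% mitochondrial UMIs were kept (23011 of 24839). They were clustered with scanpy 1.11.5 (counts scaled to 10000, 2000 variable genes chosen after the 640 V(D)J segments and the 10 genes had been set aside, 30 components, 20 neighbours, Leiden resolution 1), and T-like and NK-like cells were clustered again. Clusters were named by marker lists, and the minimum of 1 own marker among the leading genes was set after the clusters had been seen. Doublets were kept, with an alternative without the 678 cells with a Scrublet score of 0.2 or more.

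From the UMI counts summed per class and library, CPM with exact Poisson 95% intervals, log2 ratios after adding 10 CPM and calls at 1.5-fold among genes with at least 100 UMIs over the 4 libraries of the class were computed. Shares were also computed from cells thinned to 1000 UMIs. With 1 library per group no test was run, and the intervals cover counting error only. The log2 ratio, its interval and the 1.5-fold call were tested on simulated Poisson counts of summed CD8 cells. That simulation has no spread between cells, and the other steps were not tested in this way. All 10 genes were named by list. Genes of the machinery were named where CD8 or NK-like cells passed 1.5-fold, and pattern genes by the 3 highest correlations. The genes and lists were chosen with earlier results of these data known. Promoters came from RefSeq (GRCm38.p6), in which all 10 genes were matched, and transcripts and positions from GENCODE on the same build. Motif matches were counted in the 250 bases before each start.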

Additional observations from a re-analysis of the deposited data

Results flagged for a closer look

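In 6 pairs of classes a gene was higher than untreated in 1 class and lower in the other under the same treatment. These differences were not tested, since each class and treatment is 1 library. With the STING agonist, the log2 ratio of Gzmf was 1.21 in CD8 cells and 0.60 in CD4 cells but -1.77 in NK-like cells, and that of Gzmg was 0.62 in CD8 cells and -0.71 in NK-like cells. With the LTβR agonist, Gzmc was at 0.61 in CD8 cells and -0.71 in NK-like cells, and Gzmf at 3.31 in CD4 cells, -1.15 in CD8 cells and -1.49 in NK-like cells. The 10 highest cells held all UMIs of Gzmf in NK-like cells in each library, 248 UMIs of Gzmf in 2 CD4 cells made up the value of 3.31 and were also what brought the gene to 100 UMIs in that class, and the NK-like STING agonist ratio of Gzmf was 3.05 without the ILC1-like cells. Gzmg had at most 83 UMIs in any of these classes and libraries.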

How the results depend on the processing

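No paired analysis was possible because each group is 1 library and the groups share no replicate numbers that pair animals. The alternative settings covered the 60 log2 ratios to untreated in CD8 and NK-like cells, and not the ratios between treated libraries. Of their 660 values, 557 stayed within the counting interval, 82 moved beyond it, and 21 of ratios past 1.5-fold came to 0 or changed side. The LTβR agonist ratio in CD8 cells ran from -0.93 to -0.75 for Gzmb and from -1.08 to -0.79 for Prf1, and the combination ratio of Prf1 there from -0.71 to -0.53. In NK-like cells the LTβR agonist ratio of Gzmb ran from -0.78 to -0.44. Among ratios past 1.5-fold, those that changed side or came to 0 in CD8 cells without the 10 cells highest in each gene were 0.079 for Gzma and -0.27 for Gzmc with the LTβR agonist and 0.00 for Gzmg after the STING agonist and after the combination. In NK-like cells they were -0.39 for Gzmc and 0.00 for Gzmd, Gzmf and Gzmg with the STING agonist, 0.00 for Gzmd, Gzme, Gzmf and Gzmg with the LTβR agonist and 0.00 for Gzme, Gzmf and Gzmg with the combination, since fewer than 11 cells held those genes. With the members and V(D)J genes kept in the clustering, Gzmc with the LTβR agonist in CD8 cells was -0.037. With equal weights of sub-clusters, Gzmd in NK-like cells was -0.094 with the STING agonist and 0.89 with the LTβR agonist. Without ILC1-like cells, an alternative added after seeing the data, NK-like ratios were -0.093 for Gzmc and 3.05 for Gzmf with the STING agonist and -0.14 for Gzmg with the LTβR agonist. Of 144 counts of genes past 1.5-fold under alternatives, 119 stayed within 1.5 times. In CD8 cells, adding 50 CPM gave 1 higher gene with the STING agonist and 0 with either other treatment, leaving out the 10 highest cells gave 0 higher in both of these, and keeping the members in the clustering gave 0 higher with the LTβR agonist. The mean of CPM per cell gave 0 lower with the STING agonist, and the combination had 2 lower without likely doublets and 0 with equal weights. In NK-like cells with the STING agonist, 1 gene was higher after adding 50 CPM, 1 with median-of-ratios scaling, 0 without the 10 highest cells, 1 with the members in the clustering and 0 with equal weights, and 1 was lower without the 10 highest cells and 0 without ILC1-like cells. With the LTβR agonist, 0 were higher after adding 50 CPM, by the mean of CPM per cell, without the 10 highest cells and without ILC1-like cells, and 2 with equal weights, while 0 were lower without the 10 highest cells and 3 with equal weights. With the combination, 0 were higher without the 10 highest cells and 1 without ILC1-like cells. Except where a setting removed the cells that held a gene, the cause was not tested.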
